A study of Arabidopsis thaliana with 6 samples.

Results

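Tetraspanins are small membrane proteins, and 10 of their genes in *Arabidopsis thaliana*, TET3 to TET12, are described here across seedlings that met a bacterial protease and seedlings that did not. The genes were found by symbol in the probe annotation of the array, through probe sets that name a single gene. All 10 were found, with 1 probe set each, among the 13355 genes tested. The family was selected on the protease IV minus mock differences of these same arrays, which were known when it was chosen. The values of the 10 genes in that comparison are therefore given as a description, without p-values.

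A tetraspanin crosses the membrane several times, exposes a small and a large loop on the outer face, and gathers with other tetraspanins and partner proteins into membrane patches. Tetraspanins are also built into vesicles that form inside multivesicular endosomes and leave the cell when such an endosome fuses with the plasma membrane. In plants TET8 is the usual marker protein of these extracellular vesicles, and in leaves infected by the fungus *Botrytis cinerea* TET8 and TET9 have been linked to vesicles that carry small RNAs out of plant cells. Other members are better known from growth and reproduction.

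The protease IV group held 3 arrays from whole seedlings, 10 days old, exposed to 20 nM purified protease IV for 1 h. Protease IV is a serine protease secreted by *Pseudomonas aeruginosa*, here of strain PA14. The mock group held 3 arrays from seedlings of the same age, which the labels call both nontreated and mock control, without saying whether a buffer was added. All seedlings grew in liquid Murashige and Skoog medium with sucrose in well plates and received fresh medium on day 8, and no genotype or strain of the plants is given in the labels used here. The labels speak of biological replicates but not of how wells were divided among them, so the spread between arrays may be partly technical. Values are log2 expression values on Affymetrix ATH1 arrays, whose probes lie near the 3-prime end of each transcript, where a difference of 1 is a 2-fold change. Because the brightness of a probe set depends on its probes, levels are compared between groups and not between genes.

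The arrays were close to each other, with medians between 6.07 and 6.13 and lower quartiles between 3.97 and 4.05. Values near or below that quartile are dim, and differences between dim values are compressed. The leaf gene RCA, the activase of carbon fixation, and the root gene PYK10, a root beta-glucosidase, were bright. The other 3 measured root markers, EXPA7, EXPA18 and AT5G66390, had group means of 5.27 to 5.90, below the array medians. The 4 measured pollen and sperm markers averaged 3.57 to 3.72 in protease IV arrays and 3.59 to 3.69 in mock arrays. Of all genes, 34.2% passed an adjusted p of 0.05 in limma, 11.4% as higher and 22.8% as lower with protease IV. A gene that passed is called higher or lower here. The split depended on scaling, with 66.6% of the calls lower in the deposited values and 42.4% lower after cyclic loess between the arrays.

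Within 1 h of protease IV, TET9 and TET8 were higher by 9.01-fold and 3.85-fold, and the other 8 tetraspanins differed by at most 1.25-fold in either direction. Of the 10 genes, 2 were called higher (11.4% of all genes), 2 lower (22.8% of all genes) and 6 were not called. Both higher genes also passed the requirement of at least a 2-fold rise, which 4.51% of all genes met, and no member was at least 2-fold lower, against 1.17% of all genes. The median difference of the 10 genes was 0.006, against -0.06 over all genes. Since the choice of the family used this comparison, these shares are background and nothing is read from them.

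**Figure D1:**
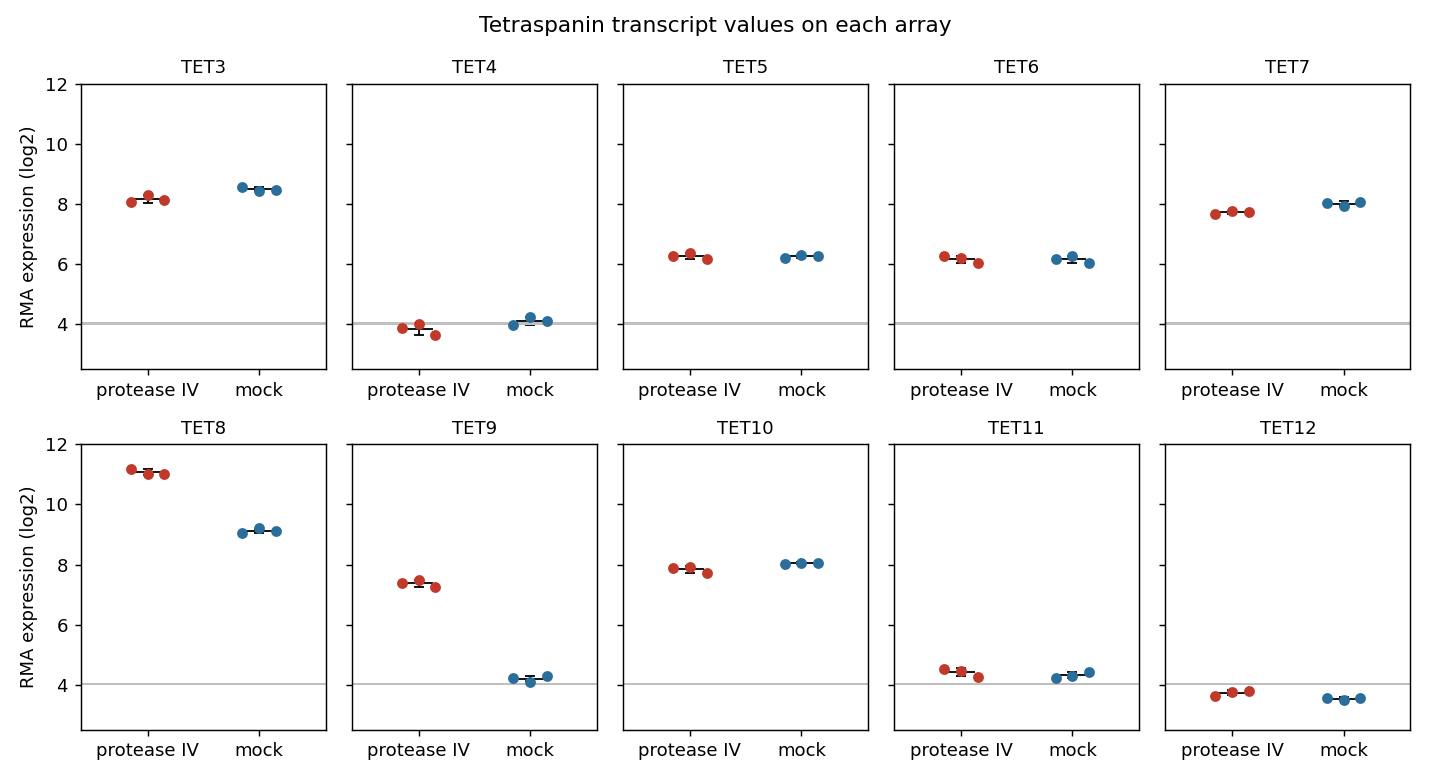
Each panel shows 1 tetraspanin, with log2 expression on the vertical axis, the 3 protease IV arrays on the left in red and the 3 mock arrays on the right in blue; black bars are the mean with the SD, and the grey band is the range of the arrays' lower quartiles (3.97 to 4.05). TET8 and TET9 are the genes with a wide gap between the groups, and TET4, TET11, TET12 and the mock values of TET9 lie near the grey band.

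TET9 encodes a tetraspanin of the extracellular vesicle type. Its values were 7.38, 7.49 and 7.24 in the protease IV arrays, against 4.22, 4.10 and 4.28 in the mock arrays. Every protease IV array stood far above every mock array, and the mock values lay just above the lower quartile, where signals are dim. The means were 7.37 ± 0.127 with protease IV and 4.2 ± 0.0912 in mock (SD, n = 3 each). TET9 thus differed by 3.17 in log2 units (SE 0.0881, 95% interval 2.97 to 3.37). TET9 stood at place 124 from the top among the differences of the 13355 genes. As its mock signal is dim, the 9.01-fold difference is that of the measured values and may understate the change in transcript.

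TET8, the vesicle marker itself, had values of 11.19, 11.02 and 11.01 in the protease IV arrays, against 9.06, 9.20 and 9.13 in the mock arrays. The groups were far apart, and TET8 was bright in both. The means were 11.07 ± 0.103 with protease IV and 9.13 ± 0.0683 in mock (SD, n = 3 each). The difference was 1.94 (SE 0.0809, 95% interval 1.76 to 2.12), which is place 298 from the top.

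TET3, which has been found at plasmodesmata, the channels between plant cells, lay slightly lower with protease IV. Its values were 8.05, 8.30 and 8.13 in the protease IV arrays, against 8.55, 8.43 and 8.47 in the mock arrays. The groups did not overlap, but the gap between the closest arrays was small beside the rises of TET8 and TET9. The difference was -0.32 (SE 0.0841, 95% interval -0.51 to -0.14), and TET3 was called lower. The call was lost after cyclic loess, where the difference was -0.14, and also without mock replicate 1, where it was -0.29.

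TET7 had values of 7.67, 7.77 and 7.72 in the protease IV arrays, against 8.02, 7.93 and 8.07 in the mock arrays. All protease IV arrays lay below all mock arrays. The difference was -0.29 (SE 0.0742, 95% interval -0.45 to -0.12), and TET7 was called lower in the deposited values but not after cyclic loess, where it was -0.10.

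TET10 had a smaller gap and was not called in the fit of all genes. It had 7.88, 7.93 and 7.70 in the protease IV arrays, against 8.00, 8.05 and 8.06 in the mock arrays. The difference was -0.20 (SE 0.0808, 95% interval -0.38 to -0.02), an interval that is not adjusted for the number of genes tested. After cyclic loess it was -0.01. When dim genes were left out, by either of 2 filters, TET10 was called lower at the same difference. TET3, TET7 and TET10 each had a smaller difference after cyclic loess than in the deposited values, whereas those of TET8 and TET9 became 2.11 and 3.31. The opposite held with the arrays centred on the hybridization controls. There TET3, TET7 and TET10 differed by -0.40, -0.37 and -0.28, and TET8 and TET9 by 1.87 and 3.09. TET10 was not called there.

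TET5 and TET6 act redundantly in holding back leaf and root growth, and their values overlapped between the groups. TET5 had 6.26, 6.36 and 6.15 in the protease IV arrays, against 6.18, 6.29 and 6.27 in the mock arrays. TET6 had 6.25, 6.19 and 6.03 in the protease IV arrays, against 6.16, 6.26 and 6.03 in the mock arrays. Both sets of values ran through each other. The difference was 0.01 for TET5 (95% interval -0.17 to 0.19) and 0.002 for TET6 (95% interval -0.20 to 0.20). After cyclic loess the differences were 0.17 for TET5 and 0.16 for TET6, and neither was called there.

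TET11 and TET12 are known from sperm cells in pollen, which a young seedling lacks. TET11 had 4.52, 4.46 and 4.26 in the protease IV arrays, against 4.22, 4.3 and 4.42 in the mock arrays, and TET12 had 3.63, 3.76 and 3.79 in the protease IV arrays, against 3.56, 3.49 and 3.57 in the mock arrays. All TET12 values lay below the lower quartile of every array, and those of TET11 just above it. The groups overlapped for TET11, at a difference of 0.10 (SE 0.0908), and did not for TET12, at 0.19 (SE 0.0753), but neither was called. In the RefSeq gene order TET11 lies next to TET16, which was dim too (3.19 in protease IV and 3.20 in mock arrays).

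TET4 was likewise dim, with 3.85, 4.0 and 3.63 in the protease IV arrays, against 3.96, 4.24 and 4.09 in the mock arrays. The groups overlapped, and the gene had the widest spread of the family, with a pooled SD of 0.168 within groups. Its difference was -0.27 (SE 0.109, 95% interval -0.51 to -0.03) and it was not called, although it was called lower with the arrays centred on the hybridization controls. Values this close to background give little information on how much of the transcript was present.

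**Figure D2:**
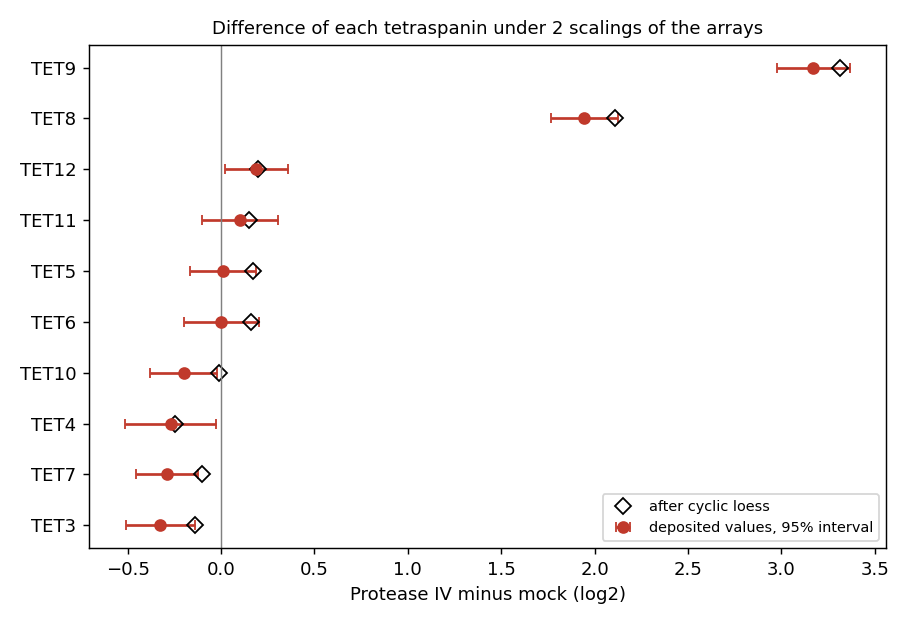
The horizontal axis gives the protease IV minus mock difference in log2 for each tetraspanin; red points with bars are the deposited values with their 95% interval and open diamonds are the values after cyclic loess. TET9 (3.17) and TET8 (1.94) lie far from the other 8 genes, which sit between -0.32 and 0.19. Under cyclic loess every gene shifts to the right. TET3, TET4, TET7 and TET10 thereby move towards 0, and the remaining genes move away from it.

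The groups did not overlap in 6 of the 10 genes, against 45.6% of all genes. Of these, 3 were higher (TET8, TET9 and TET12), against 14.7% of all genes, and 3 were lower (TET3, TET7 and TET10), against 31% of all genes. The pooled within-group SD ran from 0.0609 to 0.168 over the family, with a median of 0.0927, against a median of 0.105 over all genes. Among the protease IV arrays, replicate 3 was the lowest in 7 of the 10 genes and replicate 2 the highest in 6. Over all genes those shares were 37.8% and 43.9%. Without protease IV replicate 2, TET4 and TET10 were called lower as well, for 4 lower calls in the family.

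**Figure D3:**
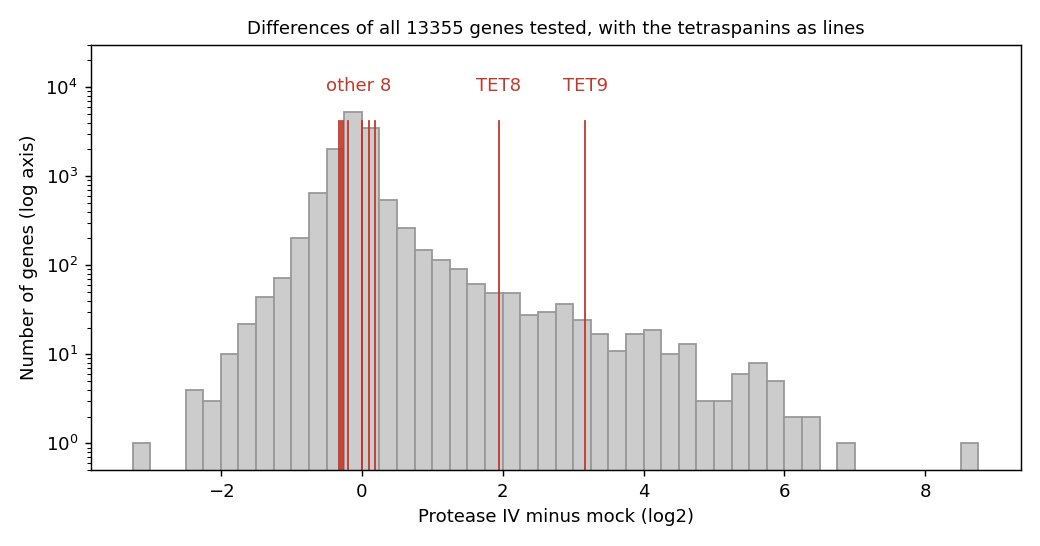
Grey bars count the 13355 genes by their protease IV minus mock difference (log2, horizontal axis) on a log vertical axis, and red lines mark the 10 tetraspanins. The lines of TET8 and TET9 fall in the thin upper tail, at places 298 and 124 from the top, and the remaining 8 fall under the central peak.

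Beyond the 10 genes, RefSeq lists 17 tetraspanin genes of this numbered family in all, TET1 being named TRN2 there, and 5 more were measured. TET2 was the only one of these 5 to pass. It had 6.88, 6.72 and 6.92 in the protease IV arrays, against 7.24, 7.20 and 7.16 in the mock arrays, and fell by 0.36 (SE 0.0794; limma, adjusted p = 0.00521). That call, too, was lost after cyclic loess. TET13, TET14, TET15 and TET16 were dim, with group means from 3.19 to 4.23, and differed by -0.15 to 0.01. With AT2G20740 and AT2G20230, which were listed with them, the list of other tetraspanins and relatives had 0 of 7 measured genes higher and 1 lower in limma, or 0 and 2 at an unadjusted p under 0.05, with a median difference of -0.08. Over all genes 11.4% were higher and 22.8% lower by adjusted p, and 1 of 7 lower is near that share. No share over all genes was counted at an unadjusted p. AT2G20230 differed by -0.22 (limma, adjusted p = 0.0505) and passed under 8 of 17 other settings. This list and the lists that follow were chosen with earlier results of these data known. Their counts and p-values are therefore a description too.

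Sorting of membrane proteins into the vesicles of the multivesicular endosome is done by the ESCRT complexes. ESCRT-I and ESCRT-II gather ubiquitin-tagged cargo, and ESCRT-III bends and cuts the membrane. Of 44 listed genes of this machinery and of the endosome, 14 were measured, of which 7 rose, 0 fell and 7 were not called in limma, or 7 higher and 1 lower at an unadjusted p under 0.05, with a median difference of 0.17 against -0.06 over all genes. By adjusted p, 11.4% of all genes were higher and 22.8% lower, and no share over all genes was counted at an unadjusted p. At least a 2-fold rise was seen in 2 of the 14, against 4.51% of all genes. After cyclic loess 9 of the 14 were higher, with AT5G04920 (VPS36 in RefSeq, of ESCRT-II) and VPS2.2 in addition. In that setting 2060 of all 13355 genes were higher, against 1525 in the deposited values. Among genes above the median brightness VPS22 was called lower, as were 2932 of the 6677 genes kept there.

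VPS60.1, an ESCRT-III-related protein, had 9.39, 9.39 and 9.44 in the protease IV arrays, against 7.57, 7.56 and 7.63 in the mock arrays. It rose by 1.82 (SE 0.0697; limma, adjusted p = 9.85e-09). VPS2.1, a subunit of ESCRT-III, had 9.92, 9.86 and 9.89 in the protease IV arrays, against 8.45, 8.46 and 8.49 in the mock arrays, and rose by 1.43 (SE 0.0685; limma, adjusted p = 5.84e-08). In both genes the gap was many times the spread within either group.

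ELC, the ESCRT-I subunit that binds ubiquitin, had 8.50, 8.44 and 8.51 in the protease IV arrays, against 7.50, 7.54 and 7.49 in the mock arrays, and rose by 0.97 (SE 0.0696; limma, adjusted p = 1.64e-06). Smaller rises were those of VPS20.1 (0.59), VPS46.2 (0.58) and SNF7.1 (0.27) of ESCRT-III, and of AT2G36680 (0.48), which RefSeq gives as VPS37-2 of ESCRT-I. Of their paralogs, VPS2.2 differed by 0.07 and SNF7.2 by -0.09, and neither was called; the difference between paralogs was not tested. ARA6, a small GTPase of multivesicular endosomes, differed by 0.05 and was not called. SNF7.1 lost its call without protease IV replicate 3, without mock replicate 1 or 3, and with the arrays centred on the hybridization controls.

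Fusion of secretory vesicles with the plasma membrane needs Sec1/Munc18 proteins and the exocyst, a tethering complex. Of 26 listed genes of extracellular vesicles and secretion 4 were measured, and 2 rose while 0 fell in limma. The counts at an unadjusted p under 0.05 were the same. The 2 that rose were the Sec1/Munc18 genes SEC1B and KEU. The other 2, AT3G58510 and AT2G42520, each differed by -0.05 and were not called. The median difference of 0.71 lies between these 2 pairs. By adjusted p, 11.4% of all genes were higher and 22.8% lower, and no such share was counted at an unadjusted p. SEC1B, a Sec1/Munc18 protein, had 8.14, 7.81 and 8.40 in the protease IV arrays, against 5.52, 5.53 and 5.39 in the mock arrays. It rose by 2.63 (SE 0.130; limma, adjusted p = 7.52e-08), and its paralog KEU rose by 1.46. Of 7 measured exocyst genes SEC15B rose by 1.04 (limma, adjusted p = 2.84e-06), with 0 falling (also 0 at an unadjusted p under 0.05), 6 not called and a median of 0.11. Over all genes 11.4% were higher and 22.8% lower by adjusted p, and 1 of 7 higher is near the share of higher genes. After cyclic loess 4 exocyst genes were higher, SEC5A, SEC6 and SEC10 in addition, beside 2060 of all 13355 genes. Of the 27 listed plasmodesma genes 19 were found in RefSeq, and 0 of these had a probe set that names a single gene. A gene counts as measured here only with such a probe set. As 8730 probe sets carry no gene name, a listed gene that was not measured may still be on the array.

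Tetraspanins form patches in the membrane, so other proteins of membrane domains were listed too. Of 13 such genes 4 were measured, with 1 higher, 1 lower and a median of -0.009. These counts are of few genes, beside 11.4% higher and 22.8% lower over all genes. After cyclic loess AT3G61260 was called higher as well, beside 2060 of all 13355 genes. AT1G69840 rose by 2.35 (SE 0.0711; limma, adjusted p = 1.71e-09), at 10.68, 10.75 and 10.72 in the protease IV arrays, against 8.33, 8.42 and 8.32 in the mock arrays. AT2G45820 fell by 0.31 (limma, adjusted p = 0.0157), a call that was lost after cyclic loess and without protease IV replicate 1 or mock replicate 1.

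**Figure D4:**
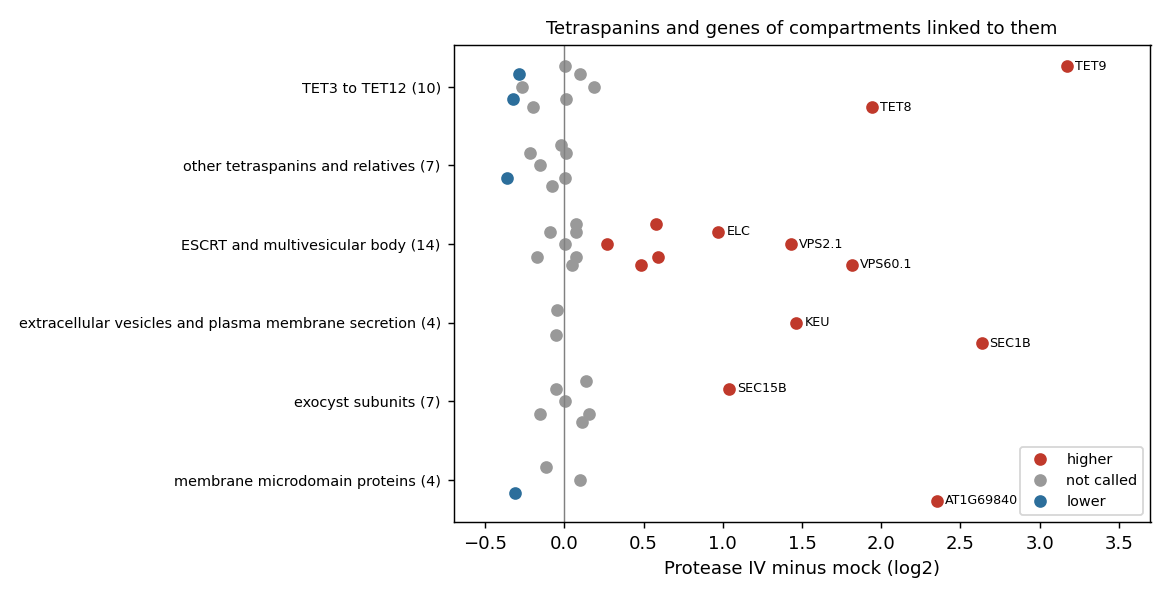
Each point is 1 measured gene, placed by its protease IV minus mock difference (log2, horizontal axis) in the row of its list, with the number of measured genes in brackets; red points were called higher, blue lower and grey not called in limma. TET8 (1.94) and TET9 (3.17) stand apart in their row, and VPS60.1, VPS2.1, ELC, SEC1B, KEU, SEC15B and AT1G69840 are the named genes with differences of 0.97 or more in the other rows.

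Markers of leaf and the stomatal lineage moved with the treatment as well, beside 22.8% of all genes called lower. Of 5 measured leaf markers 4 fell and 0 rose in limma, with list means of 11.80 to 11.95 in protease IV arrays and 12.30 to 12.35 in mock arrays. Of 3 markers of the stomatal lineage 3 fell, with list means of 5.26 to 5.43 in protease IV arrays and 5.73 to 5.91 in mock arrays. Among these MUTE was dim, with means of 3.83 in protease IV arrays and 4.14 in mock arrays. Of 4 root markers 1, EXPA18, fell and 0 rose, which is near the share over all genes. After cyclic loess 3 leaf and 2 stomatal lineage markers were lower, HPR and MUTE losing their calls. Of the root markers EXPA18 lost its call there and AT5G66390 was higher. Over all 13355 genes 1514 were lower and 2060 higher in that setting. MUTE also lost its call without 5 of the single arrays and EXPA18 without 4. The actin control probe sets, which read RNA quality, had a 3-prime minus 5-prime difference of 1.58 to 2.12 in protease IV arrays and 1.57 to 1.58 in mock arrays, with the highest value in protease IV replicate 3 (exact two-sided permutation p = 0.1, the smallest that 3 against 3 allows). For a second actin pair, GAPDH and ubiquitin the groups overlapped. The part of these shifts in the tetraspanin values was not tested. Without protease IV replicate 3, TET8 and TET9 differed by 1.98 and 3.24, and both were called higher, as they were without any other single array. In whole seedlings, fewer cells of a type and less transcript per cell cannot be told apart.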

How the data were processed

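Transcripts of whole seedlings were measured on 6 Affymetrix arrays, 3 per group, grouped by the sample titles. The deposited log2 values were made by the authors with RMA in affy 1.36.1, per the submitters' processing notes; its settings are not stated there. RMA removes background, equalises the arrays' distributions and summarises each probe set, so a change in total mRNA cannot be read and dim differences shrink. Of 22810 probe sets, 64 were controls, 13513 named 1 gene in GEO's platform annotation, 503 several and 8730 none. Symbols came from RefSeq (TAIR10.1) for 13484 of them. The brightest probe set stood for each of 13355 genes. Per gene, limma 3.58.1 in R 4.3.3 (lmFit, eBayes) gave protease IV minus mock over all 6 arrays without covariates, two-sided, with Benjamini-Hochberg adjustment over all genes and a threshold of 0.05, and was tested on simulated data. SDs are over 3 arrays, and their number limits the precision. The members, the lists and the tests were chosen with earlier results of these data known. All members are named, and of each list up to 3 genes per direction past the threshold with the largest difference, plus others where a count called for it, chosen after their values were seen. Alternatives covered scaling, dim genes, variance model, probe sets, a replicate block and each array left out.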

Additional observations from a re-analysis of the deposited data

How the results depend on the processing

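TET8 and TET9 stayed higher and called under all 17 alternatives, at 1.87 to 2.11 and 3.09 to 3.31. The 2 lower calls in the family, TET3 and TET7, became 0 with cyclic loess between the arrays, 1 without mock replicate 1 (TET7), 4 without protease IV replicate 2 and 3 with either filter on dim genes (TET10 in addition) or arrays centred on the hybridization controls (TET4 in addition); leaving out single arrays gave 1 to 4 lower calls and 2 higher ones. Of 164 recomputed differences of the 10 genes, 155 moved by less than the within-group SD or not at all, and 9 by more. Of the called ones, 0 changed sign. The dim filters, variance models, probe set choices and replicate block cannot change a member's difference and bear only on its call. The larger moves were those of TET3, TET5, TET6, TET7, TET8, TET9 and TET10 under cyclic loess. The others were TET7 and TET12 with arrays centred on the hybridization controls. That setting shifts each array by a constant, so the differences of all genes moved by the same amount. TET7 and TET12 passed the mark because their within-group SDs were the smallest of the family (0.0609 and 0.0657). Dim filters removed TET4, TET11 and TET12. Over all genes, 1525 were higher and 3039 lower, against 2060 and 1514 with cyclic loess and 2888 and 5689 with all 22746 probe sets except controls, where more features were tested. Leaving out single arrays gave 1342 to 1491 higher and 2316 to 3214 lower. The median difference of all genes was -0.06, and -0.14 with arrays centred on the hybridization controls. The hybridization controls averaged 9.42 to 9.49 in the protease IV arrays, and 9.42, 9.43 and 9.26 in mock replicates 1, 2 and 3. The cause of the changes with scaling was otherwise not tested. Between arrays of the same replicate number, deviations from the group means had correlations of 0.038, -0.10 and -0.18. These values cannot show whether such arrays were handled as pairs. With a replicate block the family again had 2 higher and 2 lower calls. Dim signals limit what TET4, TET11 and TET12 can show.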
